A study of Mus musculus with 42 samples.

Results

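The serotonin receptor genes were examined in sensory ganglia of the mouse: the 5-HT3 channel subunits Htr3a and Htr3b and the G protein-coupled receptors Htr1a, Htr1b, Htr1d, Htr2a, Htr2b, Htr2c, Htr4 and Htr7. Every probe set, the group of short oligonucleotides that reads a transcript on an Affymetrix array, was taken whose annotation gives exactly 1 of these 10 symbols. This gave 26 of the 57589 probe sets on the 2 array types, and they covered 9 of the 10 genes, out of 18337 genes named. MG-U74Av2 carried 10 of them for 8 genes, among 12488 probe sets, and Mouse430_2 carried 16 for 9 genes, among 45101. Htr3b was read on Mouse430_2 alone, and Htr2a is not analysed here.

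Serotonin acts on sensory endings through a ligand-gated cation channel and through several families of G protein-coupled receptors. The 5-HT3 channel is a pentamer that opens within milliseconds and depolarises the ending; its A subunit can form a channel alone, and its B subunit reaches the surface and conducts only together with A. Vagal afferents of the gut are a classical site of this channel, where it responds to serotonin released by enterochromaffin cells and is blocked by the setron class of antiemetics. The receptors of the 1 family couple to Gi/o proteins and restrain transmitter release, those of the 2 family couple to Gq and phospholipase C, and Htr4 and Htr7 couple to Gs and adenylyl cyclase.

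The ganglia came from BALB/c mice, an inbred laboratory strain, held in standard housing with no treatment; neither age nor sex is given in the sources used here. The nodose ganglion (NG), which holds vagal sensory neurons of the viscera, was set against the dorsal root ganglion (DRG), which holds spinal sensory neurons. On MG-U74Av2 there were captured neurons (NG n = 5, DRG n = 5) and whole ganglia (NG n = 7, DRG n = 5), and on Mouse430_2 there were captured neurons (NG n = 11, DRG n = 9). These 3 experiments may not be independent: the numbers of all 10 captured samples on MG-U74Av2 recur in the same ganglion on Mouse430_2, and the labels do not say whether animals or extracts were shared. Captured samples were about 150 neurons cut out by laser, which the series calls visceral sensory neurons; how they were recognised, and the spinal level of the DRG, are not given in the sources used here. About 12 µg of RNA was labelled for each array, and the labels call it amplified only for captured neurons on MG-U74Av2, so capture and amplification cannot be told apart there. The sample descriptions call every sample laser captured, and the extraction protocol was followed, which names whole ganglia for the first experiment. Nothing in the labels says that samples were separate animals, so p-values measure only how these samples vary, and that variation may be technical.

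Markers of the 2 kinds of neuron followed the ganglion labels on Mouse430_2. There the summed signal of the nodose neuron markers Phox2a, P2rx2 and Ntsr1 ran between 1260 and 2220 in NG neurons and between 70.9 and 138 in DRG neurons, and that of the Hox genes Hoxa9 and Hoxc8 ran between 5.66 and 32.6 in NG neurons and between 389 and 1370 in DRG neurons. On MG-U74Av2 the nodose sum (2 of 4 markers) was 641 to 1220 in captured NG against 19.8 to 27.3 in captured DRG. It rested on Ntsr1 (median 988 against 13.9), as Phox2a was dim (13.1 against 8.5) and did not pass the filter. The Hox sum there was 76.2 to 92.4 in captured NG against 89.5 to 111 in captured DRG. Hoxa9 followed the labels (median 32.4 in NG against 47.7 in DRG), while Hoxc8 went the other way (58 against 47.3). Of these 2 tested, 0 were called. The Hox pair is 2 of 5 DRG neuron markers listed. Captured samples were not free of other cells: markers of satellite glia and Schwann cells (8 of 10 on Mouse430_2) summed to between 10500 and 13100 in NG and between 13000 and 16000 in DRG, and 3 of the 8 were higher in DRG and 0 in NG at a limma adjusted p under 0.05. On MG-U74Av2 the glial sum (7 of 10 markers) was 11900 to 13000 in captured NG against 14100 to 16400 in captured DRG, and 15800 to 20200 in whole NG against 15600 to 19600 in whole DRG. In the captured samples there, 3 of the 7 were higher in DRG and 0 in NG. By medians S100b was 471 in captured NG against 1650, while Apoe (7810 against 7570), Mbp (327 against 306) and Sox10 (285 against 202) went the other way. The log2 ratio of the 3′ over the 5′ actin control probe set, which grows as the labelled RNA gets shorter, was 5.82 ± 0.234 in captured NG and 5.45 ± 0.183 in captured DRG (SD, n = 5 each) on MG-U74Av2. It was 2.94 ± 0.395 in whole NG (SD, n = 7) and 2.80 ± 0.0799 in whole DRG (SD, n = 5), and on Mouse430_2 5.71 ± 0.374 in NG (SD, n = 11) and 5.61 ± 0.273 in DRG (SD, n = 9). The part of glia and of RNA length in the results below was not tested. Summed markers of other cell types differed too. Endothelial markers (6 of 6) summed to 1060 to 1750 in whole NG against 653 to 902 in whole DRG (4 of 5 tested higher in NG). Macrophage markers (6 of 6) summed to 542 to 872 in captured NG against 253 to 360 in captured DRG on MG-U74Av2. Of 3 tested, 1 was higher in NG. There H2-Aa had a median of 439 in NG against 70.6, while Cd74 (86.2 against 98.9) and C1qa (11.9 against 22.3) went the other way. Fibroblast markers (5 of 5) summed to 902 to 2240 in NG against 1670 to 4320 in DRG on Mouse430_2. Of 5 tested, 1 was higher in DRG. There Dcn had a median of 407 in NG against 1480, while Col1a1 (133 against 109) went the other way. The part of these cell types was not tested.

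Htr3a, which encodes the subunit that every 5-HT3 channel needs, was the member with the largest signal difference on MG-U74Av2, and it was higher in NG in all 3 experiments. In captured neurons on MG-U74Av2 its signal was 4119, 4849, 5177, 5278 and 5707 in NG, against 386, 475, 539.5, 649 and 689.7 in DRG. The groups did not overlap, and the lowest NG sample lay far above the highest DRG sample. The mean was 5026 ± 593 for NG and 548 ± 124 for DRG (SD, n = 5 each), a log2 difference of 3.19 (SE 0.154, 9.15-fold, limma adjusted p = 3.47e-09). Signals are on a linear scale after each array was brought to the same trimmed mean, and differences are NG minus DRG of log2(signal + a pseudocount), so folds of dim probe sets are understated.

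In whole ganglia Htr3a had a signal of 3558 at the lowest, 4554 at the median and 4929 at the highest over 7 NG samples, against 437, 541, 557, 572 and 575 in 5 DRG samples. Here too no NG sample came near a DRG sample. The log2 difference was 3.02 (SE 0.102, 8.09-fold, limma adjusted p = 7.69e-13). In whole tissue, and in pools of captured neurons alike, a larger share of cells with the transcript and more transcript per cell cannot be told apart.

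On Mouse430_2 a separate probe set for Htr3a gave 3642, 4414 and 6311 (lowest, median and highest of 11 samples) in NG neurons, against 176, 405 and 1053 (of 9 samples) in DRG neurons. The DRG samples varied more among themselves than on MG-U74Av2, over a range that still ended well below NG. The log2 difference was 3.44 (SE 0.225, 10.9-fold, limma adjusted p = 5.63e-12). Within its own array the Htr3a probe set ranked at percentile 99.7 of all probe sets in the median NG sample and at 89.1 in the median DRG sample. On MG-U74Av2 it ranked at percentile 99.1 in captured NG and 85 in captured DRG, and at 99.2 in whole NG and 84.8 in whole DRG, so that DRG also held a signal in the upper part of the array.

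**Figure D1:**
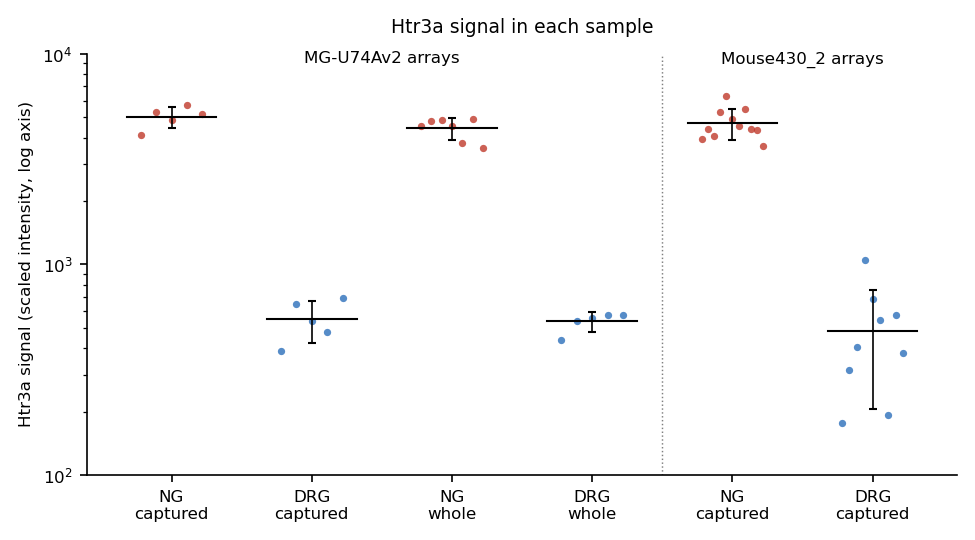
Htr3a signal (scaled intensity, log axis) in each sample of the 6 groups, with NG left of DRG in each experiment; points are samples, bars are the mean and SD. NG samples lie between 3558 and 6311 and DRG samples between 176 and 1053 in every experiment; levels are comparable only within an array type.

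Whether capture changed the Htr3a level was asked in a joint fit of the 4 groups on MG-U74Av2. In NG the mean signal was 5026 ± 593 in captured neurons (SD, n = 5) and 4431 ± 544 in whole ganglia (SD, n = 7), a log2 difference of 0.18 (95% confidence interval -0.07 to 0.44, limma adjusted p = 0.219). In DRG it was 548 ± 124 in captured neurons and 537 ± 57.1 in whole ganglia (SD, n = 5 each), a log2 difference of 0.01 (interval -0.27 to 0.28, adjusted p = 0.97). The order of the 4 group means was thus captured NG, whole NG, captured DRG and whole DRG, and within a ganglion the neighbours did not differ beyond their spread. The NG minus DRG difference was larger by 0.18 on the log2 scale in captured neurons than in whole ganglia (SE 0.183, adjusted p = 0.553), a gap that did not pass the threshold.

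Htr3b, the subunit that joins Htr3a in heteromeric channels of higher conductance, was also higher in NG neurons. Its signal on Mouse430_2 was 30.9 at the lowest, 85.3 at the median and 350.3 at the highest in 11 NG samples, against 1.10, 2.52 and 4.68 in 9 DRG samples. All DRG samples were at the floor of the array (median percentile 4.06), whereas the median NG sample stood at percentile 70.3, and the groups did not overlap. The means were 102 ± 87.5 in NG (SD, n = 11) and 2.68 ± 1.197 in DRG (SD, n = 9), and the log2 difference was 3.16 (SE 0.281, 8.95-fold, limma adjusted p = 2.01e-09). All DRG samples lay under the filter's percentile of 40, the highest at 15.2, so the probe set was tested only because it is high in NG and could hardly have shown no difference. Because the DRG signal also lies below the pseudocount of 7.48, the size of this difference depends on that constant: it was 4.56 with a pseudocount of 1 and 1.38 with one of 50, past the threshold both times. Detection calls were not analysed, so the DRG value may be background.

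Among NG samples Htr3b varied more than Htr3a. Sample 12 stood highest at 350.3, and the next was sample 3 at 119, while samples 7 and 5 were lowest at 30.9 and 35.2. Sample 12 also had the lowest actin ratio of all Mouse430_2 samples (4.88), and samples 7 and 5 had the lowest trimmed means in NG before scaling (84.2 and 102); the part of these in the Htr3b values was not tested. The sample with the most Htr3a signal, sample 7 at 6311, was thus the one with the least Htr3b. Across the 11 NG samples the log2 signals of the 2 subunits had a Pearson r of -0.157 (permutation p = 0.642, adjusted p = 0.716) and a Spearman rho of -0.236 (p = 0.487, adjusted p = 0.974), with 100000 resamples. Without the 2 samples farthest from the Htr3a median, r was -0.469. Across the 9 DRG samples r was 0.139 (exact permutation p = 0.716, adjusted p = 0.716) and rho -0.0167 (exact permutation p = 0.982, adjusted p = 0.982), with an r of -0.232 without the 2 farthest. No relation was detected in either ganglion; 2 were computed, the tests are two-sided, and Htr3b in DRG is near background.

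The genes whose signal followed each subunit most closely over the 20 captured samples on Mouse430_2, after each ganglion's mean was removed, differed between the 2 subunits. For Htr3a they were Ctps2 (r = 0.84), Tm9sf3 (r = 0.78) and Adck2 (r = 0.78), and for Htr3b they were Ttc39b (r = 0.79), Krt222 (r = 0.78) and Man1a2 (r = 0.78). These are the highest of 12857 and 12858 correlations, a description with no test, and all values share the same arrays and scaling. By the same measure Htr3a and Htr3b had an r of -0.02 with each other. In the RefSeq annotation (GRCm38.p6) both genes lie on chromosome 9 with 0 genes between them.

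Start regions are shown for the 3 receptors that differed most on Mouse430_2 and have a promoter window in RefSeq (GRCm38.p6, 250 bases before to 50 after the annotated start, read 5′ to 3′ on the gene's strand): Htr3b, higher in NG, and Htr1b and Htr1d, higher in DRG. Htr3b spans chr9:48964941-48965240 on the minus strand, Htr1b chr9:81633783-81634082 on the minus strand and Htr1d chr4:136423274-136423573 on the plus strand. Capitals mark a match to a motif searched.
Htr3b: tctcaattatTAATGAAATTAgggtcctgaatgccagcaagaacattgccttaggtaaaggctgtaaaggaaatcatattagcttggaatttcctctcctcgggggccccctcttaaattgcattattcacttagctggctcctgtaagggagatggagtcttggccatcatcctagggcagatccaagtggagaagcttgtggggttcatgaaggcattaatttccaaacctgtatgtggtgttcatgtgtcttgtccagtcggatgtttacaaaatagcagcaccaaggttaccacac
Htr1b: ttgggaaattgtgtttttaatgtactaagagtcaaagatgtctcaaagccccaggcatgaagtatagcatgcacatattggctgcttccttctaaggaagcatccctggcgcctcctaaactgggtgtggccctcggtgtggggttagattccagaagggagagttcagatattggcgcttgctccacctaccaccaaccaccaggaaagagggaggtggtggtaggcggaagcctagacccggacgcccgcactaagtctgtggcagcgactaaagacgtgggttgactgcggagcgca
Htr1d: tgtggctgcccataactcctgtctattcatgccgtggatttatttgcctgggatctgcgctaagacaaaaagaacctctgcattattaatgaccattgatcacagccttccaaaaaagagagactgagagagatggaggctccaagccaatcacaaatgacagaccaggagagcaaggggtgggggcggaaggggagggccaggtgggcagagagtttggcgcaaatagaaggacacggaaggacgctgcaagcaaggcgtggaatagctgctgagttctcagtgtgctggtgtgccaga

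Both strands of the 9 windows of 8 members were searched for 4 motifs. The palindrome bound by dimers of paired-type homeodomains matched Htr3b alone, 240 bases before the start, and 0.487% of all 32851 windows hold it. This motif was chosen after the sequence had been read, and the match is a description of the letters. TAATTA, held by 5.29% of windows, matched Htr2a alone. The palindromic NF1 motif (0.807% of windows) and TGACGTCA, the cyclic AMP response element (1.79% of windows), matched no member window.

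Of the Gi/o-coupled receptors, Htr1b and Htr1d, whose agonists are the triptans, were lower in NG neurons on Mouse430_2. Several genes had more than 1 probe set there, named here as EST-based or mRNA-based after the kind of sequence record each was designed from, an EST being a single-read fragment of a transcript. By the EST-based probe set Htr1b had a signal of 9.13, 21.4 and 41.6 (lowest, median and highest of 11) in NG, against 93.6, 152 and 368 (of 9) in DRG. Every NG sample lay below every DRG sample. The log2 difference was -2.52 (SE 0.229, 5.73-fold lower in NG, limma adjusted p = 3.08e-09). The mRNA-based Htr1b probe set read 50.04, 108 and 137 in NG and 102, 133 and 180 in DRG, which overlap. Its difference was -0.52 (SE 0.176, adjusted p = 0.032), and it did not pass the threshold under quantile scaling (adjusted p = 0.0507) or with equal medians (adjusted p = 0.0706), nor in 7 of 20 fits that left out 1 sample (without NG sample 1, 13 or 14, or DRG sample 2, 5, 10 or 14). In the samples whose numbers do not occur on MG-U74Av2 it was -0.55 (adjusted p = 0.174).

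Htr1d showed the same pattern on Mouse430_2. The first EST-based probe set read 3.01, 20.2 and 30.4 in NG, against 55.5, 111 and 144 in DRG, with no overlap (log2 difference -2.08, SE 0.218, 4.22-fold lower in NG, limma adjusted p = 4.06e-08). The second EST-based probe set read 6.92, 20.6 and 42.3 in NG, against 59.3, 96.7 and 149 in DRG, again with no overlap (log2 difference -1.89, SE 0.228, 3.70-fold lower in NG, adjusted p = 4.55e-07). Some probes of the first also match other transcripts, as its suffix marks, and the pair gave like differences. The median NG sample stood at percentile 40.3 by the first and 39.8 by the second, and the lowest DRG sample at 59.2 and 60.7. As for Htr1b, the 9 DRG samples alone were enough for the filter. The mRNA-based probe set read 22.7, 37.2 and 48.4 in NG and 25.5, 54.9 and 60.2 in DRG, and its difference of -0.38 (SE 0.179, adjusted p = 0.142) did not pass.

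On MG-U74Av2 these receptors did not follow that pattern in captured neurons. Htr1d had a signal of 81.1, 125, 138, 146 and 185 in captured NG, against 59.2, 90.6, 101, 109 and 116 in captured DRG, which overlap (log2 difference 0.45, SE 0.219, limma adjusted p = 0.169). Htr1b read 64.2, 78.8, 86.4, 93.4 and 110.0 in captured NG, against 16.4, 50.9, 53.4, 73.1 and 80.4 in captured DRG, also overlapping (log2 difference 0.66, SE 0.288, adjusted p = 0.119). Both estimates thus pointed the other way from Mouse430_2, without passing the threshold, and the 2 array types use different probes.

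In whole ganglia Htr1d was lower in NG, at 47.9, 69.2 and 122 (lowest, median and highest of 7), against 90.3, 105, 123, 125 and 139 in DRG. The groups overlapped, and the log2 difference of -0.52 (SE 0.195, limma adjusted p = 0.0439) was just past the threshold. It did not pass without the filter on dim probe sets (adjusted p = 0.0694), in a fit of all 4 groups (adjusted p = 0.0591), or in 9 of 12 fits that left out 1 sample. Htr1b stayed below the filter there, at 36.3 ± 15.7 in NG (SD, n = 7) and 37.1 ± 21.8 in DRG (SD, n = 5).

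Capture went with higher signals of both receptors in NG. Htr1b averaged 86.6 ± 17.0 in captured NG (SD, n = 5) and 36.3 ± 15.7 in whole NG (SD, n = 7), a log2 difference, captured minus whole, of 1.08 (SE 0.292, limma adjusted p = 0.00274). Htr1d averaged 135 ± 37.4 in captured NG and 80.5 ± 29.7 in whole NG (log2 difference 0.69, SE 0.207, adjusted p = 0.00617). In DRG neither passed: Htr1b had a difference of 0.47 (SE 0.316, adjusted p = 0.231) and Htr1d one of -0.28 (SE 0.223, adjusted p = 0.317). The change with capture differed between the ganglia for Htr1d (interaction 0.97, SE 0.304, adjusted p = 0.0257), though not without whole DRG sample 84 (adjusted p = 0.0524), captured DRG sample 3 (0.0577) or captured NG sample 8 (0.0522). For Htr1b the interaction was 0.62 (SE 0.430, adjusted p = 0.351). Fibroblast markers (5 of 5) were lower with capture, with a sum of 1050 to 2740 in captured NG against 5780 to 9600 in whole NG, and the actin ratio moved as given above; their part was not tested.

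**Figure D2:**
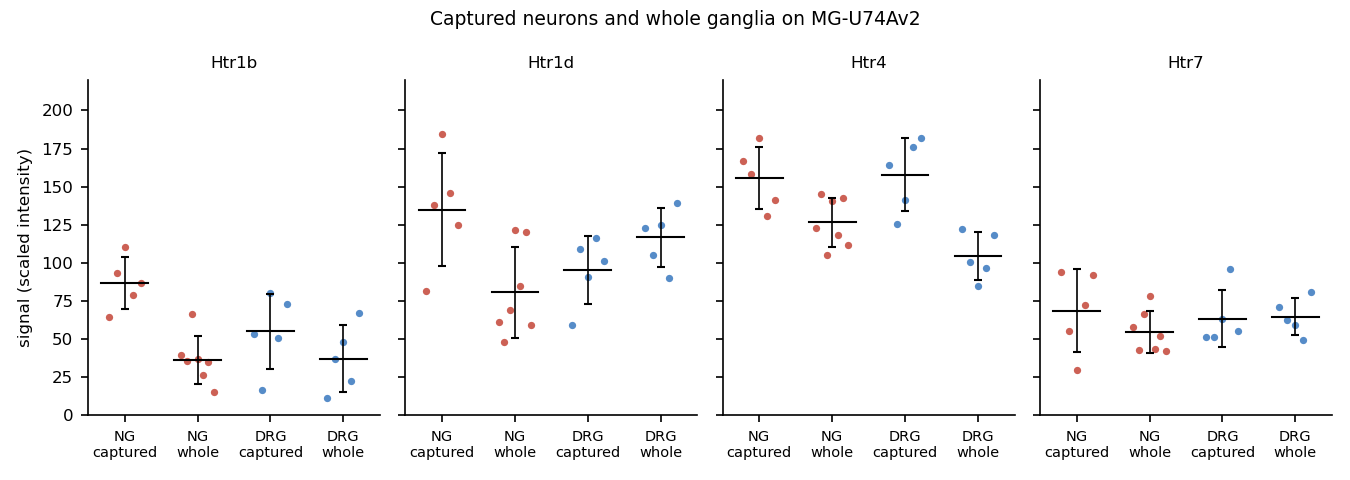
Signal (scaled intensity, linear axis) of the 4 dimmer probe sets tested on MG-U74Av2, in captured neurons and whole ganglia of NG and then of DRG; points are samples, bars are the mean and SD. Htr1b and Htr1d are higher in captured than in whole NG (86.6 against 36.3, and 135 against 80.5), and Htr4 is higher in captured than in whole DRG (158 against 104).

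Htr1a, the Gi/o-coupled receptor best known as the autoreceptor of serotonin neurons in the brain, did not differ past the threshold. On Mouse430_2 the EST-based probe set averaged 38.4 ± 23.1 in NG (SD, n = 11) and 51.0 ± 18.2 in DRG (SD, n = 9), a log2 difference of -0.41 (SE 0.232, limma adjusted p = 0.225). The mRNA-based probe set averaged 46.8 ± 14.8 in NG and 39.9 ± 17.6 in DRG (0.22, SE 0.221, adjusted p = 0.539). On MG-U74Av2 its probe set did not pass the filter, with group means between 17.5 in whole DRG and 26.9 in captured NG.

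The Gq-coupled receptors were dim. Htr2c averaged 27.1 ± 11.9 in NG (SD, n = 11) and 33.5 ± 19.2 in DRG (SD, n = 9) on Mouse430_2 by the EST-based probe set, and 22.9 ± 8.33 in NG and 24.4 ± 13.05 in DRG by the mRNA-based one. Neither difference passed (-0.18, SE 0.254, limma adjusted p = 0.687, and -0.02, SE 0.243, adjusted p = 0.972). On MG-U74Av2 Htr2c stayed under 11 in every sample and was not tested. Htr2b did not pass the filter on either array type; its means on Mouse430_2 were 9.94 ± 6.26 in NG and 7.84 ± 9.11 in DRG.

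Htr7, a Gs-coupled receptor, gave opposite estimates by 2 probe sets on Mouse430_2. By the EST-based one its signal was 43.7, 83.0 and 179 (lowest, median and highest) in 11 NG samples, against 134, 186 and 233 in 9 DRG samples. Only NG sample 12, at 179, reached into the DRG range. The log2 difference was -1.10 (SE 0.195, 2.14-fold lower in NG, limma adjusted p = 0.000118), with an adjusted p of 0.0503 in the 6 NG and 4 DRG samples whose numbers do not occur on MG-U74Av2. By the mRNA-based one the signal was 17.6, 24.6 and 40.7 in NG and 5.69, 14.2 and 33.6 in DRG, and the difference of 0.51 (SE 0.231, adjusted p = 0.122) did not pass. On MG-U74Av2 Htr7 averaged 68.6 ± 27.0 in captured NG and 63.3 ± 18.6 in captured DRG (SD, n = 5 each; 0.05, SE 0.266, adjusted p = 0.922), and in whole ganglia the difference was -0.21 (SE 0.165, adjusted p = 0.352).

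Htr4, the Gs-coupled receptor that is the target of some gut prokinetic drugs, was read by 3 probe sets on MG-U74Av2, of which 1 passed the filter. By that one the signal was 125, 141, 164, 176 and 182 in captured DRG, against 84.4, 96.3, 101, 118 and 122 in whole DRG. The groups lay side by side without overlap (log2 difference, captured minus whole, 0.55, SE 0.141, limma adjusted p = 0.00228), and with the deposited values unscaled the difference was 0.28 (adjusted p = 0.358). In NG it was 0.28 (SE 0.13, adjusted p = 0.0727; past the threshold under quantile scaling, 0.45 with an adjusted p of 0.00256), from 156 ± 20.4 in captured neurons (SD, n = 5) and 126 ± 16.1 in whole ganglia (SD, n = 7). Between the ganglia Htr4 did not differ past the threshold in captured neurons (-0.01, SE 0.156, adjusted p = 0.962) or in whole ganglia (0.25, SE 0.125, adjusted p = 0.127). The other 2 probe sets had group means of at most 20.2.

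On Mouse430_2 both Htr4 probe sets stayed below the filter. By the EST-based one the signal was 2.43, 7.56 and 19.6 in NG, against 9.78, 50.4 and 123 in DRG, where sample 2 was the lowest and the only one in the NG range. With no filter its log2 difference was -1.85 (SE 0.301, limma adjusted p = 5.42e-05). All NG samples lay under the filter's percentile, the highest at 35.7, so this probe set could pass only through DRG, and it is not counted among those tested. By the mRNA-based one the means were 19.8 ± 9.08 in NG (SD, n = 11) and 19.4 ± 9.45 in DRG (SD, n = 9).

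**Figure D3:**
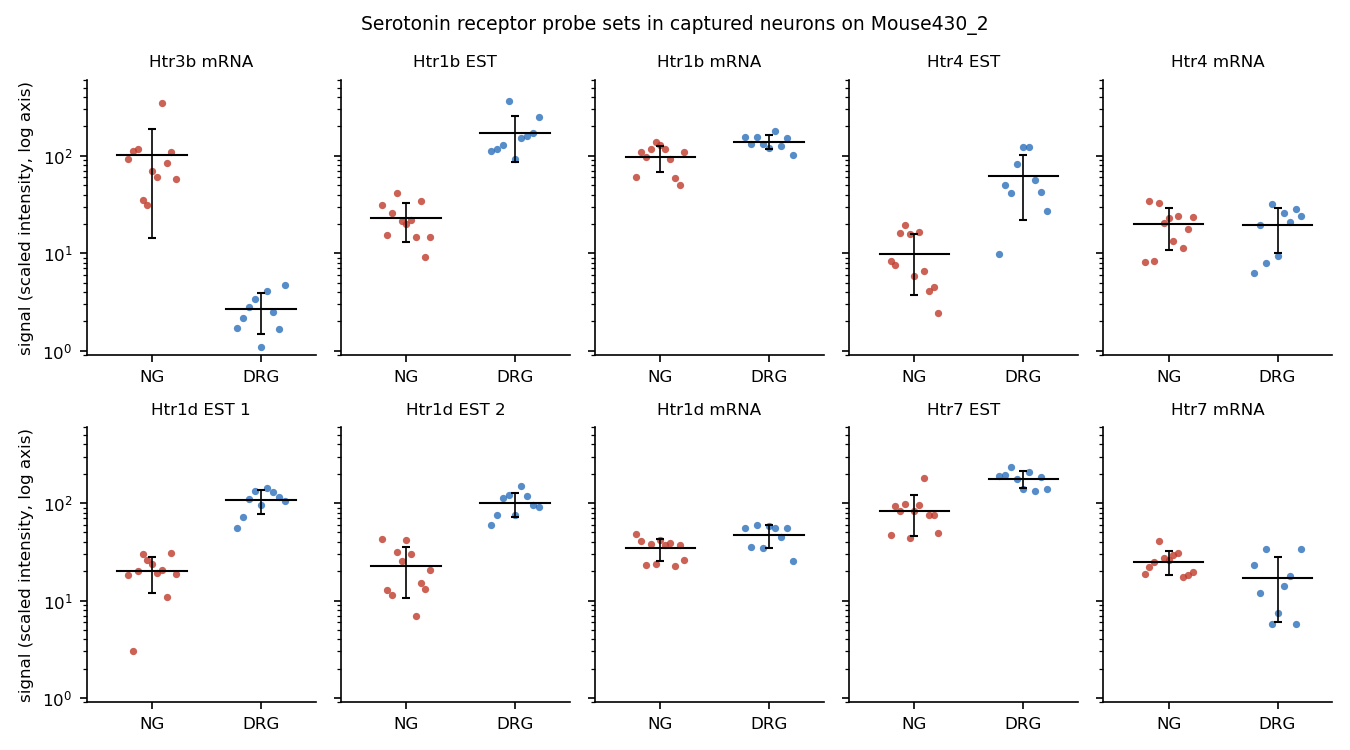
Signal (scaled intensity, log axis) of 10 receptor probe sets in captured NG and DRG neurons on Mouse430_2; points are the 11 NG and 9 DRG samples, bars are the mean and SD. Htr3b is higher in every NG sample than in any DRG sample, 1 probe set of Htr1b and a pair of Htr1d lie lower in every NG sample, and a further probe set of Htr1b, Htr1d, Htr4 and Htr7 shows a smaller difference or none past the threshold.

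Counted over probe sets, members were called in both directions. In whole ganglia 4 of 10 passed the filter, of which 1 was higher in NG and 1 lower, where 35.4% of all 7698 probe sets tested were called (19.6% higher, 15.8% lower), and 1 had groups that did not overlap, against 18.1% of all. In captured neurons on MG-U74Av2 5 passed, and 1 was higher in NG and 0 lower by limma (also 0 lower at an unadjusted p under 0.05), where 21.8% of 7583 were called (10.4% higher, 11.3% lower), and 1 did not overlap, against 16.3%. On Mouse430_2 13 of 16 passed for 7 genes, and 2 were higher in NG and 5, of 3 genes, lower, where 22.2% of 28107 were called (9.72% higher, 12.5% lower), and 5 did not overlap, against 3.84%. Htr3b passed the filter there only through NG, and DRG samples alone were enough for the EST-based Htr1b and Htr1d probe sets. These counts are thus not independent of the filter. The median log2 difference of the members was 0.02 for whole ganglia, 0.45 for captured neurons on MG-U74Av2 and -0.38 on Mouse430_2, against 0.05, 0.05 and -0.05 over all probe sets tested.

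For captured minus whole, 2 of 5 member probe sets were higher in captured NG and 0 lower, where 55.3% of 8309 were called (26.2% higher, 29.2% lower), and 0 had groups that did not overlap, against 28.1%. In DRG 1 of 5 was higher in captured neurons and 0 lower, where 47.2% were called (22.9% higher, 24.3% lower), and 1 did not overlap, against 37.3%. At an unadjusted p under 0.05 the count lower by limma was also 0 in both ganglia. The interaction passed for 1 of 5, in the positive direction, where it passed for 18.2% of all tested and was positive in 7.71% of all. With 4 or 5 probe sets tested, a single probe set sets these shares on MG-U74Av2, and nothing particular to the members is read from them.

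**Figure D4:**
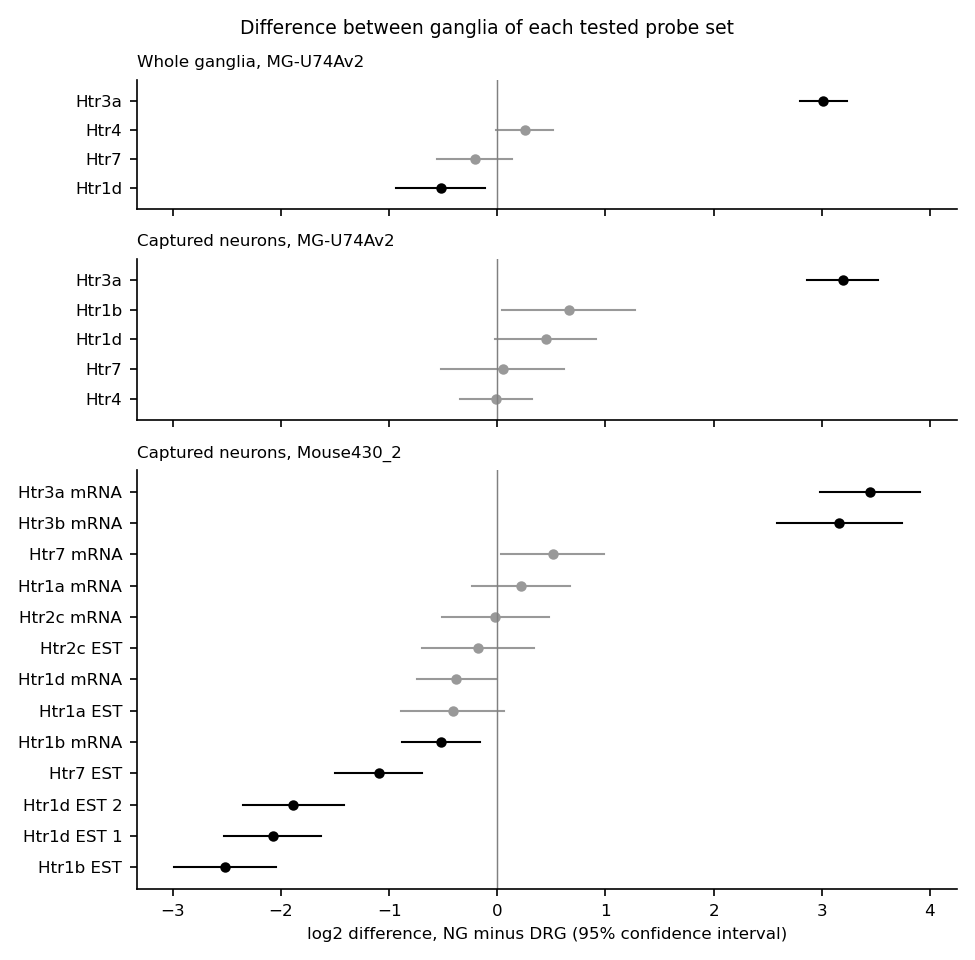
Log2 difference, NG minus DRG, of every member probe set that passed the filter in each experiment, with its 95% confidence interval; black marks an adjusted p under 0.05 and grey one above it. Htr3a and Htr3b lie between 3.02 and 3.44 in each panel that reads them, and 5 probe sets of Htr1b, Htr1d and Htr7 lie between -2.52 and -0.52 on Mouse430_2.

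Probe sets of the same gene often differed on Mouse430_2. In 6 of 6 member genes that had both kinds, each EST-based probe set gave a lower NG minus DRG difference than the mRNA-based one. The gap ran from -0.18 against -0.02 for Htr2c to -2.52 against -0.52 for Htr1b, taken without the filter. Outside the members it did not hold for Htr5a, with 0.26 by the EST-based probe set and 0.13 by the mRNA-based one. Nor did it hold for Htr1f, with -0.39 by the mRNA-based probe set. Its EST-based one averaged 2.80 in NG and 2.28 in DRG, near the floor, and did not pass the filter. The pattern was noticed after the values were seen and is a description with no test.

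Of the other serotonin receptors, Htr5b was lower in NG in all 3 experiments, with no overlap in any. On Mouse430_2 it averaged 6.97 ± 5.73 in NG (SD, n = 11) and 78.0 ± 24.7 in DRG (SD, n = 9; log2 difference -2.59, SE 0.22, limma adjusted p = 8.79e-10). The NG mean there is below the pseudocount of 7.48, and the difference ran from -3.48 to -1.15 over other settings. All NG samples there lay under the filter's percentile, the highest at 39.1, and the lowest DRG sample stood at 50.3. Htr5b was thus tested on Mouse430_2 only through DRG and could hardly have shown no difference or an overlap there. In captured neurons on MG-U74Av2 it averaged 44.2 ± 4.67 for NG and 95.1 ± 12.7 for DRG (SD, n = 5 each; -0.94, SE 0.167, adjusted p = 0.000993), and in whole ganglia the difference was -0.82 (SE 0.177, adjusted p = 0.00153). Htr5b was the 1 of 2, 2 and 3 tested genes of its list that passed in whole ganglia, captured neurons on MG-U74Av2 and captured neurons on Mouse430_2. In the same order, 35.4%, 21.8% and 22.2% of all single probe sets were called. Htr5a did not pass in any, with differences between 0.13 and 0.37.

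Genes that make, carry and clear serotonin were counted by the brightest probe set of each gene. In whole ganglia 4 of 7 tested were higher and 0 lower, in captured neurons on MG-U74Av2 3 of 7 and 0, and on Mouse430_2 6 of 12 and 1. Over all single probe sets the shares were 19.6% higher and 15.8% lower, 10.4% and 11.3%, and 9.72% and 12.5%. Ddc, the decarboxylase of the last step of serotonin and of dopamine synthesis, led on Mouse430_2 with 1215 ± 464 in NG (SD, n = 11) and 56.8 ± 22.9 in DRG (SD, n = 9; log2 difference 4.26, SE 0.198, limma adjusted p = 7.59e-15). Maob and Maoa, the monoamine oxidases that break serotonin down, had differences of 2.05 (SE 0.273, adjusted p = 2.14e-06) and 0.99 (SE 0.145, adjusted p = 8.71e-06) there. Maoa was higher in captured NG neurons on MG-U74Av2 as well (1.04, SE 0.202, adjusted p = 0.00195), but not past the threshold in whole ganglia (0.08, SE 0.119, adjusted p = 0.648).

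Tryptophan hydroxylase, the enzyme of the first step, was dim in both forms. On Mouse430_2 Tph2, the form of neurons, averaged 6.58 ± 6.58 in NG (SD, n = 11) and 31.5 ± 8.50 in DRG (SD, n = 9; log2 difference -1.55, SE 0.242, limma adjusted p = 2.1e-05), and with the NG mean below the pseudocount of 7.48 the difference ran from -2.47 to -0.53 over other settings. Tph2 passed the filter chiefly through DRG, so it could hardly have shown no difference. Tph1, the form of enterochromaffin cells and named here after its values were seen, averaged 51.8 ± 19.1 in NG and 30.5 ± 6.74 in DRG (0.59, SE 0.201, adjusted p = 0.0357). Markers of mast cells, which can hold serotonin, summed to between 61.9 and 133 in NG and between 51.3 and 184 in DRG (5 of 5 markers on the array). Gch1, which makes the cofactor of the hydroxylases, was higher in NG in whole ganglia (0.73, SE 0.16, adjusted p = 0.00177) and on Mouse430_2 (0.99, SE 0.189, adjusted p = 0.000282). In captured neurons on MG-U74Av2 its difference was 0.33 (adjusted p = 0.421), and the whole-ganglia call was lost with the deposited values unscaled (0.45, adjusted p = 0.23).

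**Figure D5:**
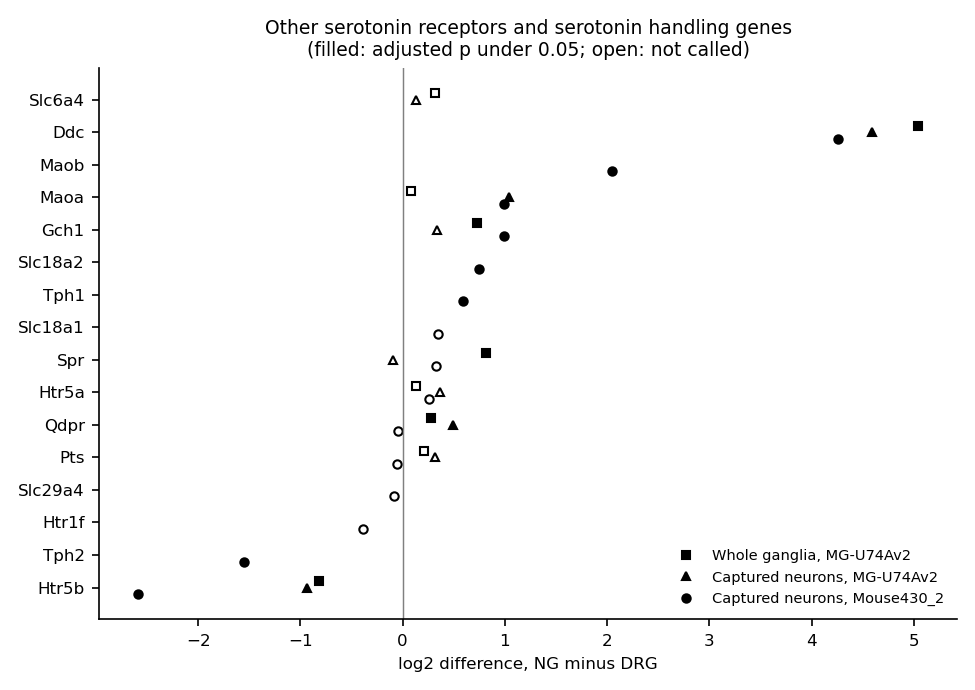
Log2 difference, NG minus DRG, of the other serotonin receptors and of genes that make, carry or break down serotonin, in the 3 experiments (squares, triangles and circles); filled symbols have an adjusted p under 0.05. Ddc lies between 4.26 and 5.04 and Htr5b between -2.59 and -0.82 in all 3 experiments.

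The other excitatory channel subunits of the same Cys-loop family went both ways on Mouse430_2, where 3 of 10 tested were higher in NG and 2 lower. Over all single probe sets tested there, 9.72% were higher and 12.5% lower. The nicotinic subunit genes Chrna7 (67.6 ± 35.7 in NG and 468 ± 91.6 in DRG, log2 difference -2.87, SE 0.304, limma adjusted p = 4.74e-08) and Chrna6 (158 ± 50.9 in NG and 373 ± 101 in DRG, -1.23, SE 0.189, adjusted p = 1.67e-05) were lower in NG (SD, n = 11 NG and 9 DRG). On MG-U74Av2 these 2 were the subunits tested, with adjusted p-values between 0.138 and 0.77. Chrna5 was higher in NG, at 98.2 ± 31.3 against 5.47 ± 5.20 in DRG on Mouse430_2. With the DRG mean below the pseudocount of 7.48, its log2 difference of 3.04 ran from 1.39 to 4.15 over other settings. Chrna5 passed the filter chiefly through NG, so it could hardly have shown no difference. Its place among the 3 higher is thus not independent of the filter. Among partners in assembly and surface delivery, Arrb1, a beta-arrestin, was lower in NG in all 3 experiments (-0.36 in whole ganglia, -0.69 and -0.57 in captured neurons on MG-U74Av2 and Mouse430_2). Its Mouse430_2 call was lost with equal medians (-0.42, limma adjusted p = 0.126) and in the samples whose numbers do not occur on MG-U74Av2 (-0.47, adjusted p = 0.0979). Arrb2 was higher in NG on Mouse430_2 (1.60, SE 0.135, adjusted p = 7.31e-10). In that list 1 of 5 tested was higher and 1 lower in whole ganglia, 1 and 2 of 5 in captured neurons on MG-U74Av2, and 1 and 1 of 8 on Mouse430_2. In the same order, the shares of all single probe sets were 19.6% higher and 15.8% lower, 10.4% and 11.3%, and 9.72% and 12.5%.

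Downstream of the Gq-coupled receptors, 4 of 9 genes tested were higher in NG and 2 lower on Mouse430_2, 1 and 0 of 4 in captured neurons on MG-U74Av2, and 2 and 1 of 6 in whole ganglia. In the same order, the shares of all single probe sets were 9.72% higher and 12.5% lower, 10.4% and 11.3%, and 19.6% and 15.8%. Plcb3, a phospholipase C, was higher in NG in all 3 (0.82 in whole ganglia, 1.40 and 1.28 in captured neurons on MG-U74Av2 and Mouse430_2), though not past the threshold in whole ganglia with the deposited values unscaled (0.48, limma adjusted p = 0.144). Gna14, a Gq-class alpha subunit, was lower in NG in whole ganglia (-2.71, SE 0.216, limma adjusted p = 4.11e-08) and on Mouse430_2 (-3.32, SE 0.306, adjusted p = 3.75e-09). In whole ganglia it averaged 26.3 ± 14.5 in NG (SD, n = 7) and 226 ± 37.3 in DRG (SD, n = 5), so DRG samples alone were enough for the filter. In captured neurons on MG-U74Av2 Gna14 did not pass the filter.

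Of the Gs route, 2 genes were higher and 5 lower of 13 on Mouse430_2, 2 and 2 of 9 in captured neurons on MG-U74Av2, and 2 and 3 of 9 in whole ganglia. In the same order, the shares of all single probe sets were 9.72% higher and 12.5% lower, 10.4% and 11.3%, and 19.6% and 15.8%. These shares also stand beside the Gi/o counts below, experiment by experiment, though those counts are listed in the reverse order. The adenylyl cyclases went apart on Mouse430_2: Adcy7 averaged 98.9 ± 110 in NG and 1467 ± 446 in DRG (log2 difference -4.44, SE 0.486, limma adjusted p = 8.64e-08), and Adcy8 521 ± 163 in NG and 107 ± 39.7 in DRG (2.20, SE 0.203, adjusted p = 4.1e-09; SD, n = 11 NG and 9 DRG). Adcy8 was higher in captured NG neurons on MG-U74Av2 too (2.17, SE 0.199, adjusted p = 3.08e-06) but lower in NG in whole ganglia (-0.69, SE 0.119, adjusted p = 0.000232). Of the Gi/o route, 1 was higher and 2 lower of 5 in whole ganglia, 0 and 1 of 5 in captured neurons on MG-U74Av2, and 0 and 1 of 8 on Mouse430_2. Kcnj9, a potassium channel subunit opened by Gi/o proteins, was lower in captured NG neurons on MG-U74Av2 (-1.68, SE 0.226, adjusted p = 9.3e-05) while in whole ganglia it was higher in NG (0.81, SE 0.283, adjusted p = 0.0358). The whole-ganglia call was lost under 4 of 8 other settings (adjusted p up to 0.16) and in 8 of 12 fits that left out 1 sample (NG sample 20, 23, 39, 46 or 73, or DRG sample 19, 37 or 70; adjusted p up to 0.111), and on Mouse430_2 the difference was 0.50 (adjusted p = 0.248).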

How the data were processed

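Values deposited by the authors are linear signal intensities; the submitters' processing notes name MAS5 as the tool, without a version or settings, and detection calls were not analysed. Probe sets were named through GEO's platform annotation. Arrays were brought to a common trimmed mean (2% off each end), control probe sets were left out, and log2(signal + pseudocount) was taken, the pseudocount being the 20th percentile (11.7 for whole ganglia, 11 and 7.48 for captured neurons on MG-U74Av2 and Mouse430_2, 11.4 for the joint fit). A probe set was tested if it exceeded percentile 40 of its array in no fewer samples than the smaller group holds, with limma 3.58.1 (R 4.3.3; trend and robust eBayes), with Benjamini-Hochberg adjustment over all tested and a threshold of 0.05. Each experiment was fitted on its own, and the 4 groups on MG-U74Av2 jointly for captured minus whole and for the interaction. The code was tested on simulated data.

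The number of arrays limits the precision; intervals are at 95%. Correlations used scipy 1.17.1. All member probe sets are described. From each pathway list, up to 3 called genes per direction with the largest difference were picked, by the gene's brightest probe set. Only some of the genes so picked are described. Members, lists and motifs were chosen with earlier results of these data known. Alternatives were other pseudocounts, no filter, quantile, equal-median or no scaling, array weights, a replicate block, a fit of all 4 groups, samples with numbers not used on MG-U74Av2, and each sample left out. Sequences and chromosomes are from RefSeq (GRCm38.p6).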

Additional observations from a re-analysis of the deposited data

Results flagged for a closer look

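In the 31 groups of 4 to 10 samples in which a member was looked at for a sample far from the rest, 2 held one, where chance flags about 1 in 20. Htr3a had a signal of 437.4 in whole DRG sample 19, while the other 4 lay between 541 and 575. Htr7 had a signal of 95.67 in captured DRG sample 10 on MG-U74Av2, while the other 4 lay between 51.5 and 62.7.

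The NG minus DRG difference of Htr1d changed sign, from -0.52 in whole ganglia to 0.45 in captured neurons on MG-U74Av2. The captured difference did not pass the threshold (limma adjusted p = 0.169). The interaction was 0.972 on the log2 scale (limma adjusted p = 0.0257). Of 22 pathway genes picked by the rule above and measured on MG-U74Av2, 8 passed the same test of the interaction, where 18.2% of all probe sets tested did. These genes were picked for large NG minus DRG differences, in part on the same arrays, so the 2 shares are not comparable. The interaction was positive for Adcy8 (2.86, adjusted p = 2.01e-09), Prkacb (1.33, adjusted p = 1.39e-05), Gna14 (0.971, adjusted p = 0.0435) and Maoa (0.958, adjusted p = 0.00459). It was negative for Kcnj9 (-2.48, adjusted p = 4.97e-05), Adcy7 (-1.74, adjusted p = 0.0197), Adcy2 (-1.17, adjusted p = 3.57e-06) and Spr (-0.909, adjusted p = 0.00094). Capture and RNA amplification cannot be told apart in these values.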

How the results depend on the processing

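Over 14 called member results and 386 alternative values, 359 kept their direction and side of the threshold, 27 kept the direction but missed the threshold and 0 reversed; over 53 called pathway results and 1288 values the counts were 1220, 66 and 2. The 2 reversals came with the deposited values and no further scaling in whole ganglia, S100a10 at -0.149 (adjusted p = 0.602) and Gnas at -0.0165 (adjusted p = 0.945). The count of members lower in NG whole ganglia was 0 with no filter, where more probe sets were tested, and 0 with all 4 groups fitted together, and 0 to 1 with 1 sample left out. In captured neurons on MG-U74Av2 the count higher in NG was 1 to 2 with 1 sample left out (2, with Htr1d, without NG sample 3). On Mouse430_2 the count lower in NG was 3 in the 6 NG and 4 DRG samples whose numbers do not occur on MG-U74Av2. For captured minus whole the count higher in NG was 4 with equal medians, and in DRG it was 0 with no further scaling and 1 to 2 with 1 sample left out (2, with Htr1b, without captured DRG sample 6). The interaction count was 0 to 1 with 1 sample left out. Other causes were not tested. The dim members, near or below the filter, are limited by signal over background.

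NG and DRG shared 4 sample numbers on MG-U74Av2 and 7 on Mouse430_2. The deviations of same-numbered samples from their group means had correlations of -0.106 to 0.111 and -0.154 to 0.155. Of these pairs, 1 of 4 and 1 of 7 were each other's best match. Such correlations cannot show whether same-numbered samples came from the same animal, and the labels do not say. With the replicate block Htr3a differed by 3.19 to 3.24 on MG-U74Av2 and by 3.42 to 3.44 on Mouse430_2, and Htr3b by 3.04 to 3.16. With the fixed block on complete pairs, which has fewer samples, the mRNA-based Htr1b probe set had an adjusted p of 0.194, and the other called members kept their calls. Whole ganglia shared 1 number, so no paired fit was possible there.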
